A study of Mus musculus with 16 samples.

Results

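The HOX cluster genes are the homeobox genes that lie in 4 chromosomal clusters, Hoxa, Hoxb, Hoxc and Hoxd. They were taken as every protein-coding row of the deposited count table whose symbol is Hoxa, Hoxb, Hoxc or Hoxd followed by a number, which gave 40 rows of 54532 genes. The 40 rows carry 39 symbols, because Hoxd4 is listed under 2 gene identifiers. RNA came from tumours grown from MC38 cells, a colon carcinoma line of C57BL/6 mice, injected into the colon wall of C57BL/6 hosts. The cells were of a line called MSI, for microsatellite instability, or of a line called CIN, for instability of chromosomes. All hosts also received bone marrow derived dendritic cells by intraperitoneal injection on days 1, 6 and 12, after 30 minutes with 2 µg of DNA and a lipid transfection reagent, and the tumours were taken on day 15. That DNA was of MSI or CIN origin and was either free cytosolic DNA or micronuclei, so the labels give 8 groups of 2 libraries: MSI tumours with MSI free DNA, MSI micronuclei, CIN free DNA or CIN micronuclei, and CIN tumours with the same 4 kinds of DNA. Each tumour type is 1 line, equal RNA from 3 biological replicates was combined per the series description, and the sources do not say if the 2 libraries of a group are separate pools. P-values then measure only how these libraries vary, which may be technical. Libraries from hosts given unstimulated dendritic cells were not analysed here.

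HOX proteins are transcription factors that give the cells of the embryo their position along the body axis. Within a cluster, genes with low numbers are active towards the head and genes with high numbers towards the tail, and many adult tissues keep the set that fits where they formed. The hind part of the gut is known for the genes of the posterior end, Hoxa13 and Hoxd13 above all, which are needed to form the hindgut and its muscle, and Hoxb13 is known in the distal colon and the prostate. HOX proteins bind DNA together with TALE homeodomain partners of the PBX, MEIS and PKNOX families.

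The clusters lie, in the coordinates of the deposited table (GRCm38), at chr6:52155590-52260880 for Hoxa, chr11:96194316-96368256 for Hoxb, chr15:102921103-103036852 for Hoxc and chr2:74668310-74765142 for Hoxd. Hoxa genes are on the minus strand and the other 3 clusters on the plus strand. Hoxa holds 11 rows, Hoxb 10, Hoxc 9 and Hoxd 10. A filter on low counts kept 35 of the 40 rows among 18777 genes tested, namely all 11 of Hoxa, 9 of Hoxb, 8 of Hoxc and 7 of Hoxd. Hoxb1 (8 counts over the 16 libraries), Hoxc12 (8 counts), Hoxd1 (5 counts) and both rows of Hoxd4 (83 and 9 counts) did not pass it and were not tested. Annotated spans, introns included, overlap between rows, and overlap of exons was not examined. In span, 12 rows overlap another HOX row. Among them are Hoxc5, whose span covers parts of Hoxc6, Hoxc8, Hoxc9 and Hoxc10, and Hoxa3, which covers Hoxa4, Hoxa5 and Hoxa6. In addition 14 rows overlap a row on the opposite strand. The sources used here do not say how shared reads were counted, so the levels of these rows are uncertain.

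Library totals ran from 11561955 to 17937501 counts. The content of colon tissue differed between libraries, measured as a colon epithelium score, the mean log2 CPM (counts scaled to equal library size, prior count 2) of 20 marker genes that all passed the filter. The score was 7.98 ± 1.70 in MSI tumours and 7.28 ± 1.80 in CIN tumours (SD, n = 8 each). It ran from 5.04 to 9.55 in MSI tumours and from 3.11 to 8.86 in CIN tumours, and the library of a CIN tumour with MSI micronuclei, replicate 1, stood apart at 3.11. In MSI tumours the 4 libraries numbered 2 scored 8.83 to 9.55 and the 4 numbered 1 scored 5.04 to 7.80, so within that tumour type colon content and replicate number cannot be told apart. Summed over the list, colon markers took 1194 to 25475 CPM in MSI tumours and 321 to 16713 CPM in CIN tumours, with no marker at 0 over all libraries. A smooth muscle score of 12 genes moved with it (4.46 to 7.79 in MSI tumours, 2.42 to 6.44 in CIN tumours). Skeletal muscle markers, 14 genes, scored 3.01 to 5.33 in 5 libraries, 1 of an MSI tumour and 4 of CIN tumours, and -1.04 to 0.61 in the other 11. In bulk RNA, fewer cells of a type and less RNA per cell cannot be told apart.

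Per length, Hoxb13 and Hoxd13 stood highest among the HOX genes. In the deposited FPKM values, which divide counts by gene length and library total, Hoxb13 averaged 70.0 ± 57.3 in MSI tumours and 31.3 ± 20.3 in CIN tumours (SD, n = 8 each). Hoxd13 averaged 46.5 ± 41.7 FPKM in MSI tumours and 23.6 ± 14.5 FPKM in CIN tumours. Both varied widely between libraries, with SDs close to their means in MSI tumours. Within every library Hoxb13 stood above Hoxd13. The pairs ran from 1.55 against 0.838 FPKM (CIN tumour, MSI micronuclei, replicate 1) to 144 against 109 FPKM (MSI tumour, CIN micronuclei, replicate 2). Hoxb9, a gene of the trunk, came next and was the steadiest, at 20.7 ± 2.71 FPKM in MSI tumours and 21.3 ± 1.60 FPKM in CIN tumours. The other 9 of the 12 highest were, in order, Hoxd8, Hoxc6, Hoxc10, Hoxc11, Hoxa10, Hoxa5, Hoxa13, Hoxa7 and Hoxb6. Of these, Hoxd8 averaged 16.1 ± 4.17 FPKM in MSI tumours and 22.01 ± 3.06 FPKM in CIN tumours, and Hoxb6, the lowest of the 12, averaged 7.05 ± 2.80 FPKM in MSI tumours and 9.08 ± 1.46 FPKM in CIN tumours. Neighbours in this order overlapped. Hoxd3, towards the head end of its cluster, was low and averaged 0.286 ± 0.107 FPKM in MSI tumours and 0.310 ± 0.0963 FPKM in CIN tumours.

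**Figure D1:**
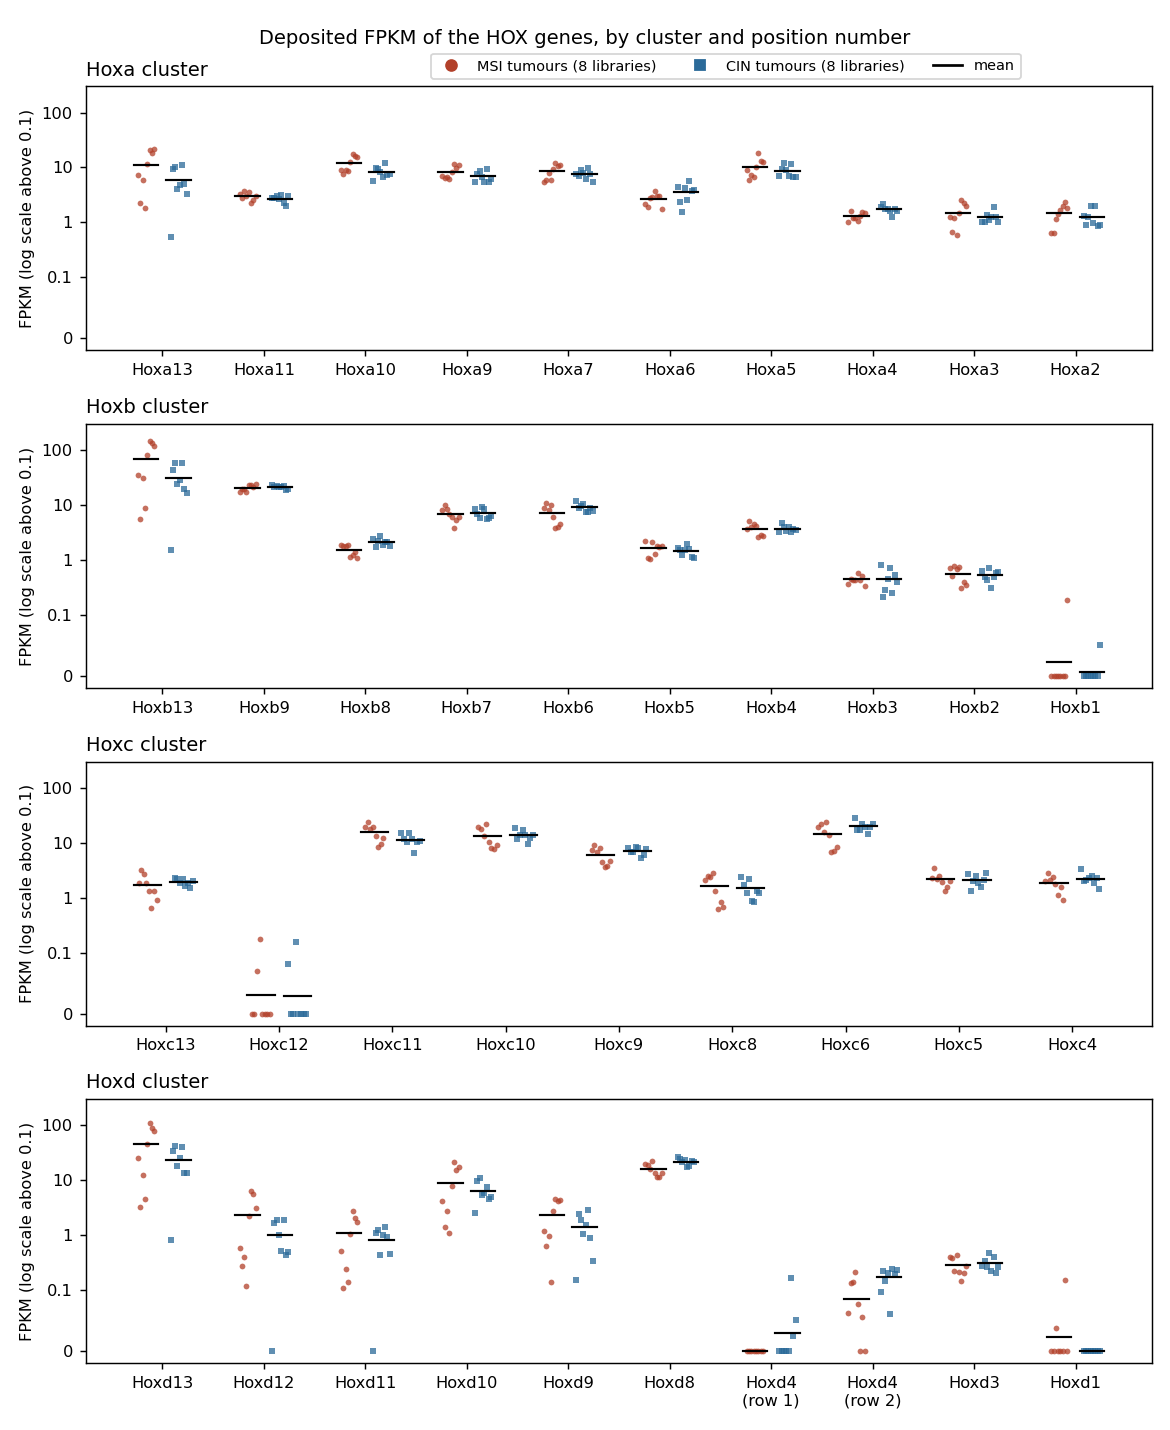
Deposited FPKM (vertical axis, log scale above 0.1) of the HOX rows, by cluster and from high to low position number, with 1 point per library, MSI tumours left of CIN tumours, and the mean as a line. Hoxb13 and Hoxd13 are the highest and most scattered of their clusters, Hoxb9 is narrow, and Hoxb1, Hoxc12, Hoxd1 and Hoxd4 lie near 0.

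Summed over a cluster, FPKM averaged 61.5 ± 21.4 for Hoxa in MSI tumours and 49.1 ± 10.5 in CIN tumours (SD, n = 8 each). Hoxb summed to 113 ± 53.8 in MSI tumours and 77.1 ± 19.5 in CIN tumours. Hoxc summed to 56.8 ± 22.04 in MSI tumours and 60.1 ± 11.6 in CIN tumours. Hoxd summed to 77.7 ± 51.2 in MSI tumours and 55.7 ± 17.7 in CIN tumours. The 2 tumour types overlapped in all 4 sums.

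Libraries differed most at the posterior end. Between its lowest and highest library, CPM differed 114-fold for Hoxd13, 81.9-fold for Hoxb13, 35.6-fold for Hoxa13, 28.0-fold for Hoxd9 and 17.2-fold for Hoxd10, but 1.42-fold for Hoxb9 and 1.85-fold for Hoxa11. Hoxd11 and Hoxd12 had 0 counts in the CIN tumour library with MSI micronuclei, replicate 1, where 3 counts would be 0.265 CPM, and reached 11.04 and 14.9 CPM in the MSI tumour library with CIN micronuclei, replicate 2.

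Next the 2 tumour types were compared, the main contrast of the study, with 1 mean for each of the 8 groups in edgeR's quasi-likelihood test and Benjamini-Hochberg adjustment over all genes tested. None of the 35 HOX genes passed an adjusted p of 0.05, where 5.8% of all genes tested did (2.32% higher and 3.48% lower in MSI tumours). At an unadjusted p under 0.05 the same test counted 4 HOX genes, and DESeq2 called 0, with 4 under an unadjusted 0.05. Fits with the replicate number as a block did make calls, in HOX genes and in genes at large. With a block over all libraries 1 HOX gene (Hoxd8) was called, among 1778 of 18777 genes. With a block within each tumour type 6 HOX genes were called, 1 higher and 5 lower, among 3428 of 18777 genes. The median log2 fold change was 0.04 over the HOX genes and 0.06 over all genes tested, and no HOX gene had CPM ranges of the 2 tumour types that failed to overlap, against 3.11% of all genes (1.23% higher and 1.88% lower in MSI tumours).

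The widest differences belonged to posterior genes and came with wide intervals. Hoxb13 had 13.5, 127 and 297 CPM (lowest, median, highest) in MSI tumours, against 3.63, 60.4 and 129 CPM in CIN tumours. Its ranges overlapped, with the 4 MSI libraries numbered 2 above every CIN library. The log2 fold change was 1.22 (SE 0.77, 95% interval -0.51 to 2.94, adjusted p = 0.374). Hoxd13 had 8.96, 89.7 and 252 CPM in MSI tumours, against 2.21, 56.6 and 103 CPM in CIN tumours, a log2 fold change of 0.99 (SE 0.84, interval -0.89 to 2.87, adjusted p = 0.489). Hoxa13 had 4.79, 23.2 and 50.4 CPM in MSI tumours, against 1.42, 12.6 and 27.3 CPM in CIN tumours, a log2 fold change of 1.00 (SE 0.61, interval -0.35 to 2.36, adjusted p = 0.353). Neither gene passed the test, and in both the 2 tumour types overlapped. Hoxd12 showed the highest estimate, 1.35 (interval -0.65 to 3.34). With single libraries left out the estimate of Hoxb13 ran from 0.34 (without the MSI tumour library with CIN micronuclei, replicate 2) to 2.04 (without the CIN tumour library with MSI micronuclei, replicate 2), and with the same 2 left out in turn that of Hoxd13 ran from 0.02 to 1.98. That of Hoxa13 ran from 0.37 (without the MSI tumour library with CIN free DNA, replicate 2) to 1.57 (without the same CIN tumour library).

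Smaller differences with narrower intervals were found for 4 genes at an unadjusted p under 0.05. Hoxa10, which patterns the hind trunk and the reproductive tract, had 26.9, 35.7 and 54.7 CPM in MSI tumours, against 19.998, 26.9 and 39.0 CPM in CIN tumours (log2 fold change 0.50, SE 0.18, adjusted p = 0.138). Hoxd8 had 29.0, 40.9 and 66.9 CPM in MSI tumours, against 49.7, 63.1 and 78.2 CPM in CIN tumours (-0.49, SE 0.19, adjusted p = 0.165). Hoxb8, a gene known for its role in blood cell precursors and microglia, had 2.73, 4.09 and 5.37 CPM in MSI tumours, against 4.49, 5.72 and 7.49 CPM in CIN tumours (-0.51, SE 0.22, adjusted p = 0.211). Hoxa4 had 1.65, 2.02 and 2.80 CPM in MSI tumours, against 1.98, 2.80 and 3.37 CPM in CIN tumours (-0.44, SE 0.19, adjusted p = 0.194). In all 4 the medians were apart and the ranges overlapped, and none passed the adjusted threshold in this fit. With a replicate block within each tumour type, Hoxd8 and Hoxa10 were among the 6 HOX genes called. The narrowest interval was that of Hoxb9, with a log2 fold change of -0.10 (interval -0.28 to 0.09). By position, the median log2 fold change was 0.03 over the 6 tested genes numbered 1 to 3, -0.15 over the 14 numbered 4 to 8 and 0.41 over the 15 numbered 9 to 13.

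**Figure D2:**
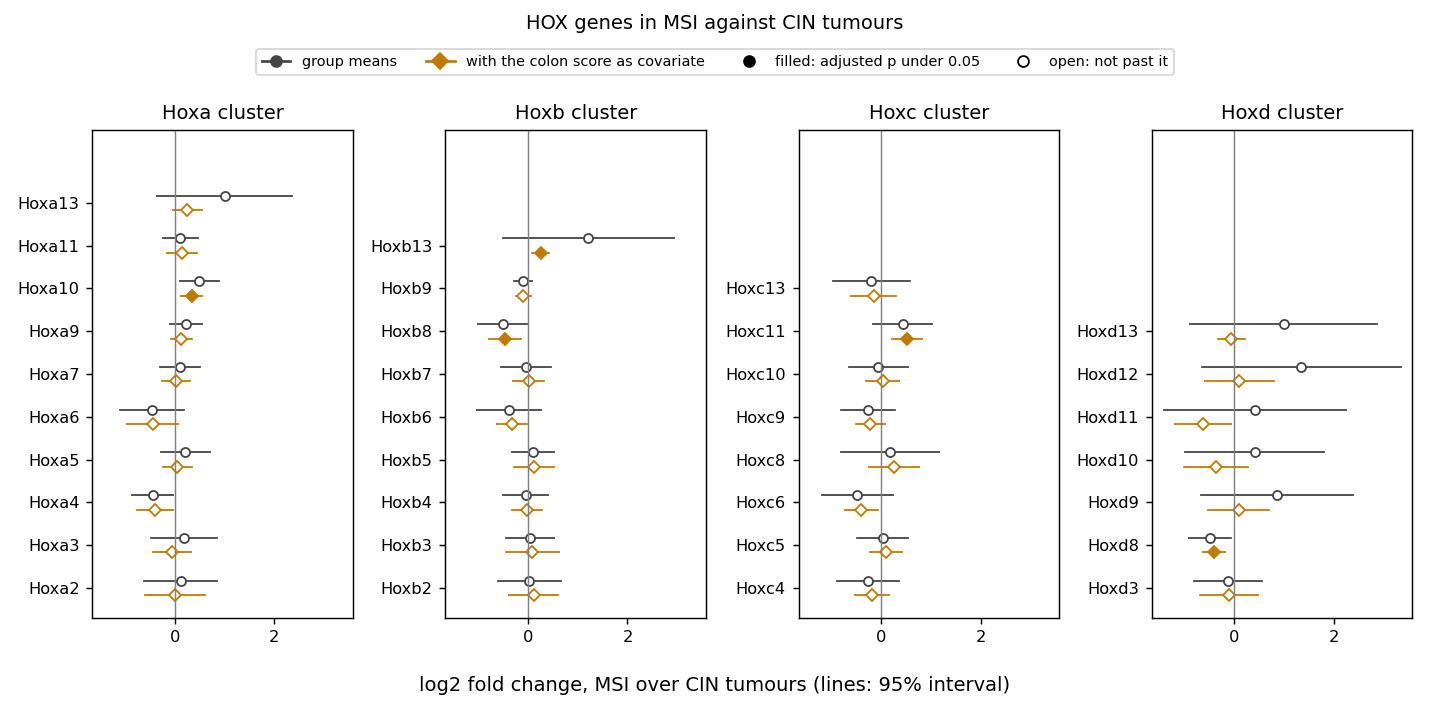
Log2 fold change of tested HOX genes, MSI over CIN tumours, with its 95% interval (horizontal axis), by cluster with position 13 at the top. Circles are from the group means and none is filled; diamonds are at equal colon score, and the 5 filled ones (Hoxa10, Hoxb13, Hoxb8, Hoxc11 and Hoxd8) passed an adjusted p of 0.05.

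The DNA given to the dendritic cells was then compared over both tumour types. For MSI against CIN DNA, 0 of 18777 genes passed (0%), with 209 at an unadjusted p under 0.05 and 0 by DESeq2 (249 unadjusted). None of the 35 HOX genes passed, and 1 had an unadjusted p under 0.05. This was Hoxb3 at a log2 fold change of 0.51 (interval 0.02 to 1.00). Hoxb13 stood at -0.16 (interval -1.86 to 1.54) and Hoxb9 at -0.02 (interval -0.21 to 0.17). For free DNA against micronuclei, again 0 genes passed (0%), with 148 at an unadjusted p under 0.05 and 0 by DESeq2 (198 unadjusted). No HOX gene reached an unadjusted 0.05, and the estimates ran from -0.27 for Hoxd9 to 0.24 for Hoxd12. The interaction of tumour type with DNA origin was called for 0 genes (0%; 285 unadjusted; DESeq2 called 2, with 366 unadjusted), and that with DNA form for 0 (0%; 159 unadjusted; DESeq2 called 0, with 204 unadjusted). No HOX gene was under an unadjusted 0.05 in either. For free DNA against micronuclei the interval of Hoxd13 ran from -1.90 to 1.83 and that of Hoxb13 from -1.64 to 1.77, so changes of that size were not detectable with these libraries.

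HOX genes moved in opposite directions along the colon content of the libraries. The direction differed between clusters and, in Hoxb and Hoxd, also by position. In a model of tumour type plus the colon epithelium score over all 16 libraries, 24 of the 35 HOX genes changed with the score, 12 upwards and 12 downwards. Among all genes tested 51.4% did, 25.3% upwards and 26.1% downwards, so a call on this score was common among genes at large. Hoxa had 6 higher and 0 lower of 11, Hoxb 1 higher and 3 lower of 9, Hoxc 0 higher and 8 lower of 8, and Hoxd 5 higher and 1 lower of 7. Over genes numbered 9 to 13, 9 were higher and 4 lower of 15, and the 4 lower were all Hoxc genes. Over those numbered 4 to 8, 2 were higher and 8 lower of 14, and over those numbered 1 to 3, 1 was higher and 0 lower of 6. The median slope was -0.06 log2 units per unit of score over the HOX genes and -0.02 over all genes tested.

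**Figure D3:**
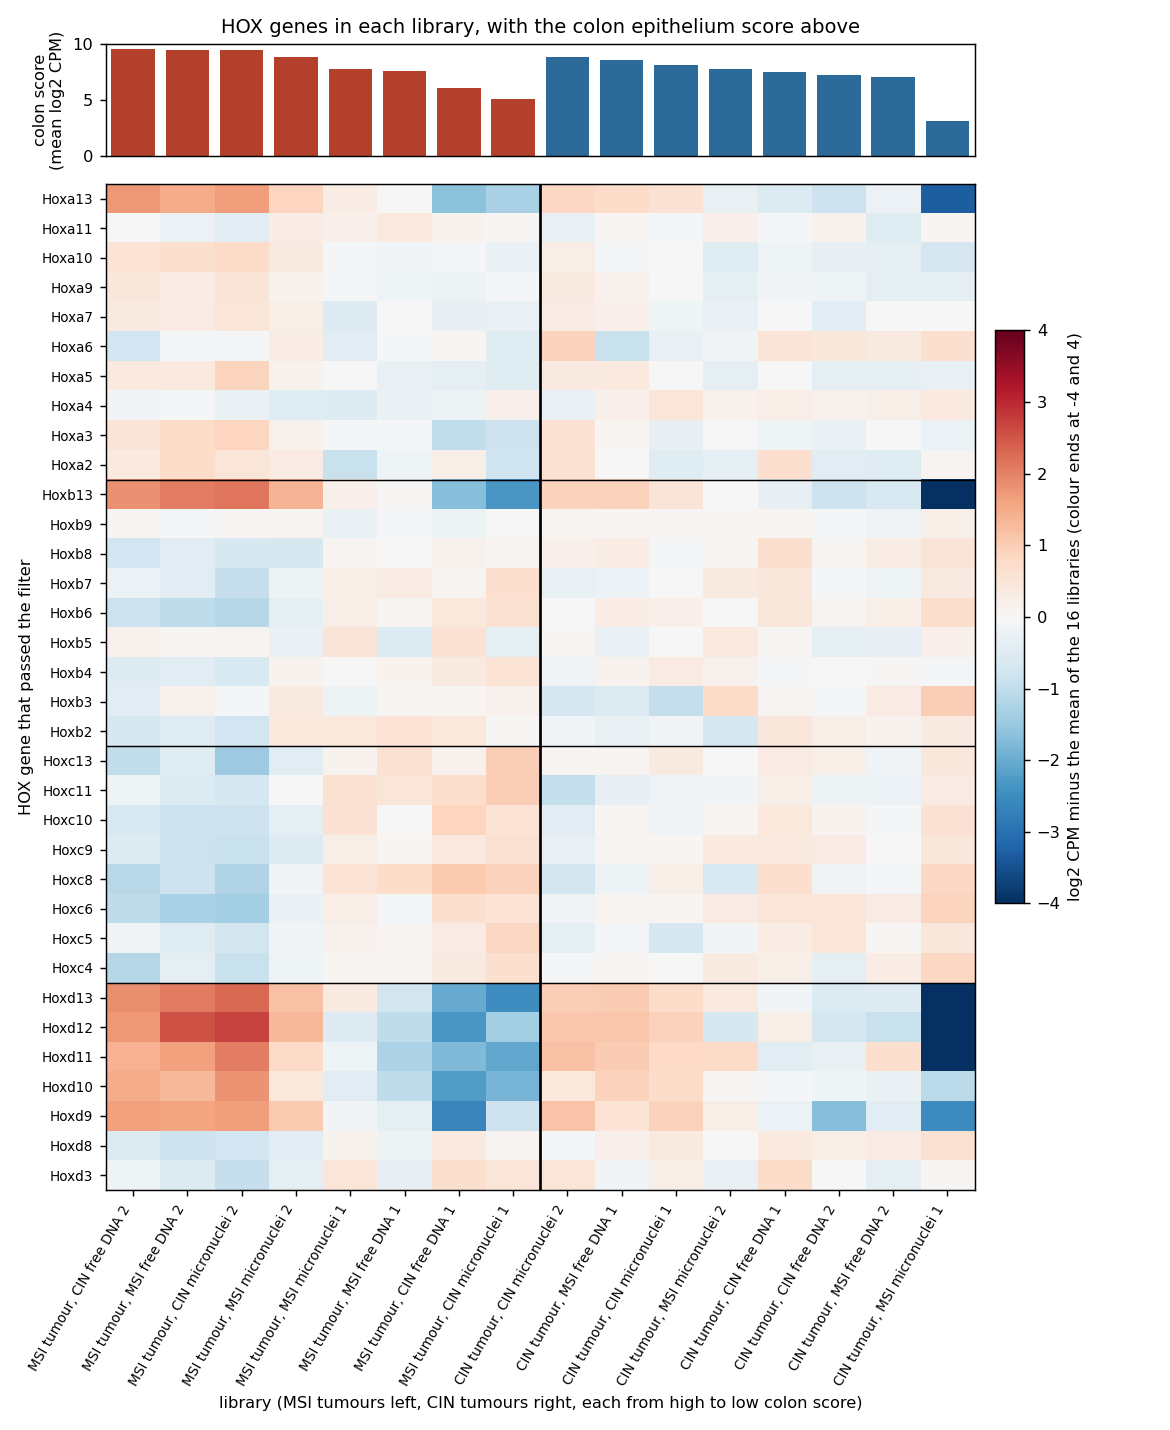
Log2 CPM of tested HOX genes minus each gene's mean over the 16 libraries (colour, from -4 to 4), with the colon epithelium score of each library as bars above and libraries ordered from high to low score within MSI tumours (left) and CIN tumours (right). Hoxa13, Hoxb13 and Hoxd9 to Hoxd13 are red at high scores and blue at low scores, and Hoxc genes run the other way.

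Hoxb13, Hoxd13 and Hoxa13, the last genes of their clusters, followed the colon score most tightly. Hoxb13 had 297, 283, 243 and 175 CPM in the 4 MSI tumour libraries of highest score and 13.5 CPM in the MSI tumour library of lowest score. In CIN tumours it had 128 CPM in the library of highest score and 3.63 CPM in that of lowest score. Its slope was 0.98 log2 units per unit of score (SE 0.03, adjusted p = 1.41e-15). Hoxd13 had a slope of 1.06 (SE 0.05, adjusted p = 5.53e-13) and Hoxa13 a slope of 0.76 (SE 0.05, adjusted p = 1.13e-10). The 4 other posterior genes of the Hoxd cluster went the same way, with slopes of 1.18 for Hoxd12 (SE 0.12), 1.01 for Hoxd11 (SE 0.10), 0.77 for Hoxd9 (SE 0.10) and 0.59 for Hoxd10 (SE 0.10). Hoxc13, the last gene of the fourth cluster, went the opposite way: it had 1.47, 3.93 and 8.59 CPM (lowest, median, highest) in MSI tumours and 3.85, 4.86 and 5.93 CPM in CIN tumours, with a slope of -0.23 (SE 0.07, adjusted p = 0.00800). In MSI tumours its lowest library was the one with the highest Hoxb13, and its highest library the one with the lowest Hoxb13.

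Because the posterior genes moved together, the promoters of 2 of them are shown beside those of 2 genes that fell with the score. RefSeq windows (GRCm38.p6) of 250 bases before to 50 after a gene's start were given for 22 of the 39 HOX symbols, 24 windows in all, and capitals mark CG dinucleotides. They lie at chr6:52260831-52261130 (minus strand) for Hoxa13, chr2:74667975-74668274 (plus strand) for Hoxd13, chr2:74704365-74704664 (plus strand) for Hoxd8 and chr11:96281655-96281954 (plus strand) for Hoxb8.
Hoxa13: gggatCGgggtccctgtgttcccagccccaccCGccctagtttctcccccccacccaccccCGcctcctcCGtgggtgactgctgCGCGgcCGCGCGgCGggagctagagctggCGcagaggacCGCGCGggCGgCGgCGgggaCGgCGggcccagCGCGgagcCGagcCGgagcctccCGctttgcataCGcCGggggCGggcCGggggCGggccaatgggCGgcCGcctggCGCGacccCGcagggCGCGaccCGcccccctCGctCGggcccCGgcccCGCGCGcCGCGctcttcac
Hoxd13: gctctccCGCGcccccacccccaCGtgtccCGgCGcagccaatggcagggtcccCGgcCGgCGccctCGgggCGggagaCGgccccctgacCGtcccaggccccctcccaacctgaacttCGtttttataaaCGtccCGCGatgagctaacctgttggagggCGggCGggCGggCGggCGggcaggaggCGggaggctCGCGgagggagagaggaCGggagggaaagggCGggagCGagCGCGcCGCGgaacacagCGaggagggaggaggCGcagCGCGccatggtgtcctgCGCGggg
Hoxd8: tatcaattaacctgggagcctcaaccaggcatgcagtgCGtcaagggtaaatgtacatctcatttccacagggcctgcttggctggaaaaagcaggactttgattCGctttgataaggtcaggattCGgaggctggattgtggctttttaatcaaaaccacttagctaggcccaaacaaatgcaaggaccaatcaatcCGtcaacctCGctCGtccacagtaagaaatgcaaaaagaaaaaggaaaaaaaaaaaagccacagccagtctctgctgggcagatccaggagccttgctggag
Hoxb8: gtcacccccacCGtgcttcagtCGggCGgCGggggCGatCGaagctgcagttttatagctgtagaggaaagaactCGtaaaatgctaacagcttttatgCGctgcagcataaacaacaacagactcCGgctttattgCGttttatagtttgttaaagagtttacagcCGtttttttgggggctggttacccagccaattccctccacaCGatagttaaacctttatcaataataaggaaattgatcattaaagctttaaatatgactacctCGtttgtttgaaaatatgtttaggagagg
The Hoxa13 window holds 45 CG dinucleotides and the Hoxd13 window 37, the most of the 24, against 6 for Hoxd8 and 13 for Hoxb8. Among the other rising Hoxd genes, Hoxd12 had 13, Hoxd11 4 and 25 in its 2 windows, Hoxd10 22 and Hoxd9 20. Hoxb13 had no window, and of the genes that fell only Hoxd8, Hoxb8 and Hoxc4 had one. Whether CG content goes with the slope was not tested. Over the 24 HOX windows the median was 14.5, against 7 over all 32841 windows of this length. The 13 windows of genes higher with the colon score had a median of 20 (lowest 4, highest 45), the 3 of genes lower with it a median of 9 (lowest 6, highest 13) and the 5 of genes not called a median of 15 (lowest 9, highest 26). The letters TTTATG, a form of the site bound by CDX proteins, were in 5 of the 24 HOX windows (20.8%) on either strand and in 11.9% of all windows, and the TATA box letters TATAAA were in 4 HOX windows (16.7%) and in 13.6% of all. Both motifs share the letters TTTAT on 1 strand or the other and were counted separately. Neither the Hoxa13 nor the Hoxd13 window holds TTTATG, and the Hoxb8 window holds it 2 times.

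**Figure D4:**
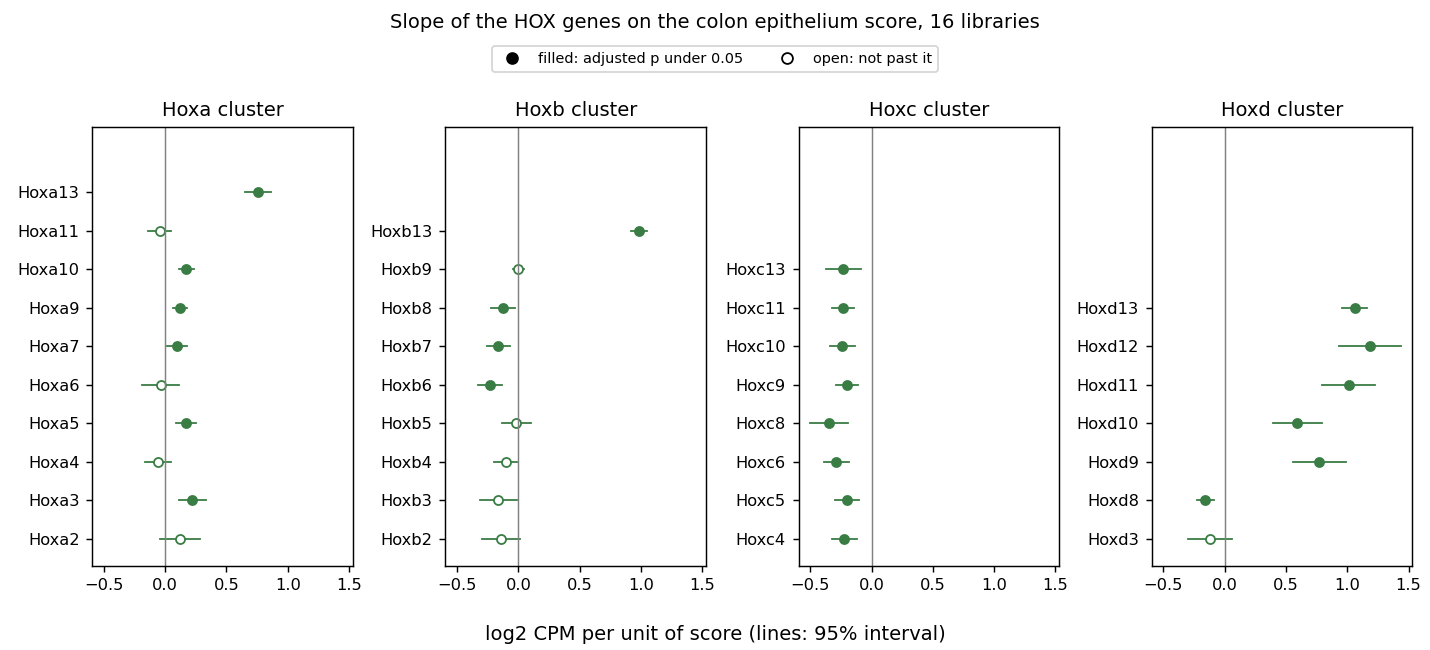
Slope of tested HOX genes on the colon epithelium score (log2 CPM per unit of score, with the 95% interval), by cluster with position 13 at the top; filled points passed an adjusted p of 0.05. The Hoxd genes 9 to 13, Hoxb13 and Hoxa13 lie at 0.59 to 1.18, and all 8 Hoxc genes lie between -0.34 and -0.20.

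In the Hoxa cluster 5 further genes changed with the score by smaller amounts. Hoxa3, which forms pharyngeal organs, had a slope of 0.22 (SE 0.05), Hoxa10 of 0.17 (SE 0.03), Hoxa5, which is needed for lung and stomach formation, of 0.17 (SE 0.04), Hoxa9 of 0.12 (SE 0.03) and Hoxa7 of 0.09 (SE 0.04, adjusted p = 0.0464). The call of Hoxa7 was lost in 11 of 16 fits that left out a library and in 4 of 11 other settings. Without the CIN tumour library with MSI micronuclei, replicate 1, the slope was 0.38 for Hoxa3, 0.27 for Hoxa5 and 0.19 for Hoxa7. Hoxa10 had 54.7 CPM in the MSI tumour library with CIN micronuclei, replicate 2, and 19.998 CPM in the CIN tumour library of lowest score. Hoxa11, next to Hoxa13 on the chromosome, did not pass (slope -0.04, interval -0.14 to 0.05). Hoxa2, Hoxa4 and Hoxa6 did not pass either, with slopes of 0.12, -0.06 and -0.03.

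All 8 tested Hoxc genes fell with the colon score. Hoxc8, a gene of the thoracic trunk and limb, had the steepest slope at -0.34 (SE 0.07, adjusted p = 0.000737). It had 1.66, 4.81 and 8.35 CPM in MSI tumours and 2.36, 3.72 and 7.26 CPM in CIN tumours. Hoxc6 had 15.3, 35.1 and 60.8 CPM in MSI tumours and 35.2, 48.7 and 72.2 CPM in CIN tumours. The 4 MSI tumour libraries of highest score held 15.3 to 32.5 CPM of Hoxc6, below all 8 CIN tumour libraries, while the CIN tumour library of lowest score held 72.2 CPM, the most of all 16. The slope of Hoxc6 was -0.29 (SE 0.05, adjusted p = 0.000136). Slopes of -0.24 for Hoxc10, -0.23 for Hoxc11, -0.22 for Hoxc4, -0.20 for Hoxc5 and -0.20 for Hoxc9 completed the cluster with Hoxc13. Without the CIN tumour library with MSI micronuclei, replicate 1, the slope was -0.36 for Hoxc13 and -0.31 for Hoxc9. Without the MSI tumour library with CIN micronuclei, replicate 1, Hoxc13 stood at -0.17 and lost its call. The annotated span of Hoxc5 overlaps those of Hoxc6, Hoxc8, Hoxc9 and Hoxc10, so these 5 slopes may not be independent. Whether the rows share reads was not tested.

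In the middle of the Hoxb cluster, Hoxb6 fell with the score at -0.23 (SE 0.05, adjusted p = 0.000367), Hoxb7 at -0.16 (SE 0.05) and Hoxb8 at -0.13 (SE 0.05, adjusted p = 0.0270). The call of Hoxb8 was lost in 5 of 11 other settings and without any 1 of the 4 MSI tumour libraries with CIN free DNA or CIN micronuclei, at slopes of -0.13 to -0.11. Hoxd8, the neighbour of Hoxd9, fell at -0.16 (SE 0.03, adjusted p = 0.000478). Between Hoxd8 and Hoxd9 the sign of the slope thus changed, from -0.16 to 0.77. Hoxb9 did not pass, with a slope of 0.00 (interval -0.04 to 0.04). Its CPM ran from 45.0 to 58.6 in MSI tumours and from 49.5 to 63.9 in CIN tumours. Hoxb2, Hoxb3, Hoxb4, Hoxb5 and Hoxd3 did not pass, at -0.16 to -0.02.

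**Figure D5:**
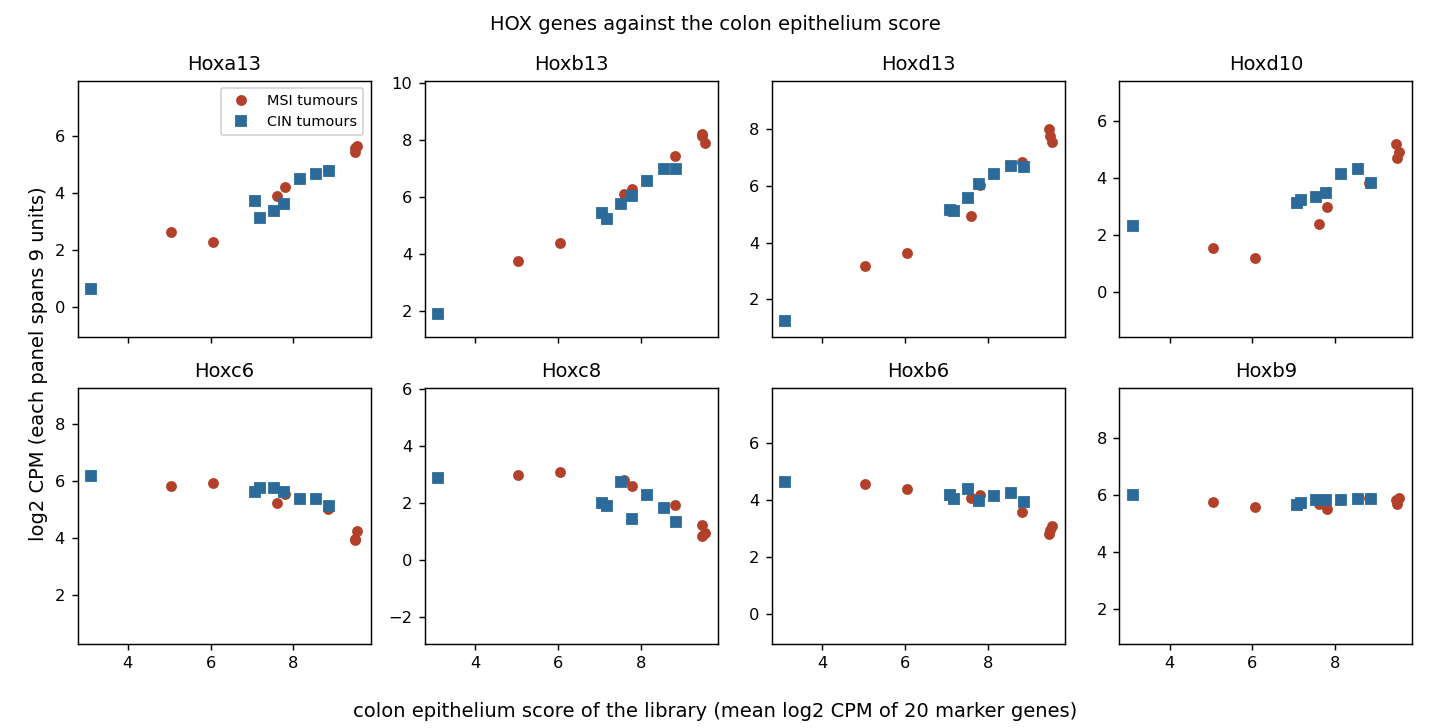
Log2 CPM of 8 HOX genes (vertical axes, each spanning 9 units) against the colon epithelium score of the library (horizontal axis), 1 point per library, MSI tumours as circles and CIN tumours as squares. Hoxa13, Hoxb13, Hoxd13 and Hoxd10 climb with the score, Hoxc6, Hoxc8 and Hoxb6 decline, and Hoxb9 is level; the CIN tumour library at 3.11 lies apart.

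Within each tumour type the slope was fitted again over its 8 libraries. In MSI tumours 12 HOX genes were higher and 14 lower with the score by the same test. There the score went with the replicate number, so the 2 cannot be told apart. In CIN tumours 8 were higher (Hoxa10, Hoxa13, Hoxb13 and Hoxd9 to Hoxd13) and 1 lower (Hoxc6). Hoxb13 had a slope of 1.01 (SE 0.04) within MSI tumours and 0.93 (SE 0.05) within CIN tumours. Hoxd13 had 1.10 (SE 0.07) within MSI tumours and 1.00 (SE 0.05) within CIN tumours, and Hoxa13 had 0.75 (SE 0.06) within MSI tumours and 0.77 (SE 0.08) within CIN tumours. Hoxc6 had -0.42 (SE 0.07) within MSI tumours and -0.16 (SE 0.03) within CIN tumours. The other 7 Hoxc genes were called within MSI tumours, at -0.49 to -0.26, and not within CIN tumours, at -0.21 to -0.06. The fits within CIN tumours lean on 1 library, with MSI micronuclei, replicate 1, at a score of 3.11. The other CIN tumour libraries scored 7.08 to 8.86. Slopes within CIN tumours without that library were not fitted, so slopes of the 2 tumour types are not directly comparable. Without the 2 libraries farthest from the median score, a setting chosen after the data were seen, 13 HOX genes were higher and 15 lower, Hoxb9 among the higher at 0.09 (adjusted p = 0.0346). Without the 5 libraries high in skeletal muscle markers, 12 were higher and 15 lower. Calls were common among genes at large too. Of 18777 genes tested, 3325 were called within CIN tumours and at most 9742 in any of these fits.

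The difference between these slopes was tested with a term for tumour type times score. In edgeR's test Hoxd10 passed and the other 34 HOX genes did not, where 1.78% of all genes tested did (1.11% higher and 0.671% lower in MSI tumours). Its CPM ran from 2.14 to 36.6 in MSI tumours and from 4.87 to 19.8 in CIN tumours. The slope was 0.91 within MSI tumours and 0.33 within CIN tumours, and the difference of the slopes was 0.57 (SE 0.12, adjusted p = 0.0227). DESeq2 called 7 HOX genes in this comparison, Hoxd10 among them, and the fit with a replicate block called 0. The call of Hoxd10 rested on single libraries: without the CIN tumour library with MSI micronuclei, replicate 1, the difference was 0.30 (adjusted p = 0.784), and without MSI tumour CIN free DNA, replicate 1, or MSI tumour CIN micronuclei, replicate 2, the adjusted p was 0.0744 or 0.0526. For Hoxc6 the difference was -0.27 (SE 0.08, adjusted p = 0.0937), so its steeper fall in MSI tumours did not pass.

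Muscle markers moved with the same genes. On the smooth muscle score 25 of the 35 HOX genes passed, 12 higher and 13 lower, where 52.3% of all genes tested did (25.7% higher, 26.6% lower). They were the 24 called on the colon score, in the same directions, and Hoxb2 (-0.24, adjusted p = 0.0304). Hoxd12 had a slope of 1.40 (SE 0.14), Hoxd13 of 1.23 (SE 0.12) and Hoxb13 of 1.11 (SE 0.13) on that score. Epithelium and muscle of the colon wall cannot be told apart as the tissue these genes follow, since all 12 smooth muscle markers rose with the colon score, as did 10 of 13 markers of enteric neurons and glia, with 1 lower. Of the 14 skeletal muscle markers 13 fell with it. On the skeletal muscle score no HOX gene passed, where 0.362% of all genes tested did (0.33% higher, 0.032% lower). In that test 9 HOX genes had an unadjusted p under 0.05, and DESeq2 called 6 (Hoxa13, Hoxa5, Hoxb13, Hoxb3, Hoxc5 and Hoxd12), with 12 at an unadjusted p under 0.05. Hoxb13 stood at -0.42 (interval -0.78 to -0.07) and all 8 Hoxc genes between 0.07 and 0.13.

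With the colon score held equal, the tumour types differed in 5 of the 35 HOX genes, where 19.6% of all genes tested did (9.13% higher and 10.4% lower in MSI tumours). Higher in MSI tumours were Hoxc11 at a log2 fold change of 0.51 (SE 0.14, adjusted p = 0.0156), Hoxa10 at 0.34 (SE 0.10, adjusted p = 0.0205) and Hoxb13 at 0.25 (SE 0.08, adjusted p = 0.0396). Hoxc11, whose product acts in the hind trunk and limb, had 15.96, 31.6 and 51.4 CPM in MSI tumours and 13.5, 23.3 and 32.5 CPM in CIN tumours. Lower in MSI tumours were Hoxd8 at -0.41 (SE 0.11, adjusted p = 0.00893) and Hoxb8 at -0.45 (SE 0.15, adjusted p = 0.0410). Hoxd8 was the only 1 of the 5 to pass under every setting tried. Leaving out single libraries ended the call of Hoxb13 in 10 of 16 fits, of Hoxb8 in 10, of Hoxa10 in 1 and of Hoxc11 in 0. Of 7 other settings, 3 ended the call of Hoxb13, 2 that of Hoxb8, 2 that of Hoxa10 and 1 that of Hoxc11. With the smooth muscle score in place of the colon score, Hoxb13 stood at -0.030. At equal score, Hoxd13 stood at -0.06 (interval -0.33 to 0.21) and Hoxa13 at 0.25 (interval -0.04 to 0.55), against 0.99 and 1.00 without the score. Endothelial markers were among the lists that also differed between tumour types, with 5 of 10 higher and 0 lower in MSI tumours and scores of 3.32 to 3.94 in MSI tumours and 2.54 to 3.77 in CIN tumours. Their part in these HOX differences was not tested.

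Among the HOX clusters lie 46 other rows, of which 25 passed the filter. None of the 25 passed in MSI against CIN tumours, where 5.8% of all genes tested did, and 9 were higher and 2 lower with the colon score, where 25.3% of all genes tested were higher and 26.1% lower. Hoxa11os, antisense to Hoxa11, had 9.52, 43.8 and 94.3 CPM in MSI tumours and 2.21, 29.5 and 56.4 CPM in CIN tumours, with a slope of 0.80 (SE 0.06, adjusted p = 1.17e-09). Hoxa11 itself, which overlaps it on the opposite strand, stood at -0.04. Gm27605 rose at 1.13, Gm27454 at 0.86, Gm27898 at 0.85, Gm27817 at 0.80, 9530018H14Rik at 0.66, Hoxaas3 at 0.23, Mir196a-1 at 0.23 and Gm53 at 0.22. Gm27454 and Gm27817 lie within the span of Hoxa11os on the same strand, so their slopes may not be independent of its slope. Hotair, a long noncoding RNA of the Hoxc cluster that in human cells has been tied to silencing of HOXD genes, fell at -0.29 (SE 0.06, adjusted p = 0.000645), as the Hoxc genes around it did, and Gm28230 fell at -0.21. Hotairm1, Gm15050, Hoxaas2, Gm27477, 5730596B20Rik, Gm27861, Hoxb5os, Hoxb3os, Gm11536, Gm11539, Gm27535, Gm28011, Hoxd3os1 and Haglr did not pass, at -0.43 to 0.23.

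The clusters also hold the genes of the small RNAs miR-10 and miR-196. Poly-A selected libraries do not measure the mature forms, so a count on such a row is of longer RNA. Their mature sequences (RefSeq, GRCm38.p6) are shown because the 2 members of each family share a seed, bases 2 to 8, given in capitals.
miR-196a-5p: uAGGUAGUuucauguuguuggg
miR-196b-5p: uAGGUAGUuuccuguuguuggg
miR-10a-5p: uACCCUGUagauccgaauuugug
miR-10b-5p: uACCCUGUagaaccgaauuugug
In mouse, Hoxb8 RNA is known to be cut through a miR-196 site. Searched against GENCODE M21 transcripts of the HOX genes, miR-196a-5p had its fullest complement in the 3' UTR of Hoxb8. The site lies at chr11:96284888-96284909 (GRCm38, plus strand). There 21 of 22 bases pair and 1 forms a G:U wobble, which lies in the seed, so the seed is not fully paired. Capitals mark the letters opposite the seed.
Hoxb8 site: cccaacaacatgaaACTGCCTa
The row of Mir196a-1, in the Hoxb cluster, had 1.74, 3.74 and 7.15 CPM in MSI tumours and 2.63, 3.11 and 5.99 CPM in CIN tumours. A link between miR-196 and the level of Hoxb8 RNA in these libraries was not tested. Mir196b had 0 counts, Mir196a-2 had 4, Mir10a 12 and Mir10b 3 over the 16 libraries.

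TALE cofactors, with which HOX proteins bind DNA, gave no call between the tumour types. Of the 9 genes, among them Pbx2, Pbx3, Pbx4, Meis1, Meis2, Meis3, Pknox1 and Pknox2, none passed in MSI against CIN tumours, with adjusted p-values of 0.133 and above. Among all genes tested 5.8% passed. Meis2 had 27.1, 33.7 and 49.4 CPM in MSI tumours and 23.6, 26.4 and 34.5 CPM in CIN tumours (log2 fold change 0.39, SE 0.14, adjusted p = 0.133). On the colon score Pknox2 was higher (0.27, adjusted p = 0.0212) and Meis2 (-0.13) and Pknox1 (-0.11) lower, all within 0.27 of 0, against 0.59 and above for Hoxa13, Hoxb13 and Hoxd9 to Hoxd13.

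Of 9 listed hindgut regulators Cdx4 had 0 counts, and of the 8 tested 6 were higher and 2 lower with the colon score, where 25.3% of all genes tested were higher and 26.1% lower. Among the higher were Tcf21, a factor of visceral mesenchyme (slope 1.18, SE 0.09), Cdx1 (0.98, SE 0.03) and Cdx2 (0.95, SE 0.14), caudal-type factors of intestinal epithelium, Nkx2-3, of gut mesenchyme (0.88, SE 0.09), and Foxf2 (0.15, SE 0.06). Lower were Osr1 (-0.16, SE 0.03) and Foxf1 (-0.08, SE 0.02). Cdx1 had 12.7, 111 and 249 CPM in MSI tumours and 3.10, 58.3 and 161 CPM in CIN tumours. Cdx2, Nkx2-3 and Tcf21 had 0 CPM in their lowest CIN tumour library. Between tumour types Osr1 alone passed, with 23.3, 33.8 and 48.1 CPM in MSI tumours and 12.6, 17.3 and 21.4 CPM in CIN tumours, ranges that did not overlap (log2 fold change 0.95, SE 0.20, adjusted p = 0.0206). Among all genes tested 5.8% passed and 3.11% had ranges without overlap.

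Retinoic acid sets the front edge of HOX expression in the embryo. Of 15 tested genes of its pathway 4 differed between tumour types, where 5.8% of all genes tested did. Crabp1, a retinoic acid binding protein, had 164, 344 and 480 CPM in MSI tumours and 80.5, 111 and 151 CPM in CIN tumours, without overlap (1.57, SE 0.27, adjusted p = 0.00822). Its relative Crabp2 had 6.91, 19.9 and 43.2 CPM in MSI tumours and 51.3, 78.3 and 97.1 CPM in CIN tumours, also without overlap and in the other direction (-1.76, SE 0.32, adjusted p = 0.0115). Over all genes tested, 3.11% had ranges without overlap. Stra6, the retinol transporter, was higher (1.32, SE 0.28, adjusted p = 0.0203), and Rara, a retinoic acid receptor, lower (-0.45, SE 0.09, adjusted p = 0.0199) in MSI tumours. Of the Polycomb group, which keeps HOX genes silent, 0 of 16 genes passed between tumour types. Of 9 Trithorax group and H3K27 demethylase genes, which act against it, 0 did. With 5.8% of all genes tested passing, lists this short can hold no call. On the colon score 25.3% of all genes tested were higher and 26.1% lower. The pathway of retinoic acid had 4 genes higher and 5 lower of 15. The Polycomb group had 3 higher and 9 lower of 16, and the Trithorax list 0 higher and 6 lower of 9. Slopes of the Polycomb genes lay between -0.21 and 0.18 and those of the Trithorax list between -0.17 and -0.03.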

How the data were processed

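Poly-A RNA of 16 tumour libraries was sequenced by the authors. Per the submitters' processing notes, fastp, HISAT2 2.0.5 and featureCounts 1.5.0-p3 were used and the build was GRCm39. The coordinates in the deposited table are those of GRCm38, since 53585 of 54495 gene identifiers shared with GENCODE M21 have identical positions there. The sources used here do not say if counting used strand, and per the labels' protocols both stranded and unstranded kits are described. The authors deposited raw read counts per gene and FPKM values, which equal counts divided by gene length and library total to a relative deviation of 5.2e-15. Both tables held 4 further columns of values that match no sample here and were not used.

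Deposited counts were tested with edgeR 4.0.16 (R 4.3.3; TMM scaling, low counts removed by group, robust quasi-likelihood test, Benjamini-Hochberg threshold 0.05) with 1 mean per group, or with tumour type plus a marker score for slopes. The common coefficient of biological variation was 0.430. Intervals are at 95%. CPM used TMM-scaled library sizes, and FPKM served to compare levels between genes. DESeq2 1.42.0 was an alternative, as were other scalings, filters, covariates, a replicate block and leaving out each library. The scripts' tests were checked on simulated data. Figures were drawn with matplotlib 3.10.9. Replicate libraries of a group differed by 19.2 to 213 chi-square units per degree of freedom, so none was a duplicate.

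Named are HOX genes among the 12 highest in FPKM, past the threshold in any comparison or failing the filter, genes of other lists past the threshold between tumour types, cofactors and hindgut regulators, and rows within the clusters that passed the filter; other HOX genes were named after their values were seen. Members and lists were chosen with earlier results of these data known. The colon slope without the 2 libraries farthest from the median score, and the smooth muscle covariate, were among the alternatives chosen after seeing the data. Some genes that this rule or the lists include are counted but not reported here by name.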

Additional observations from a re-analysis of the deposited data

Results flagged for a closer look

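Each of the 35 tested HOX genes was checked within the 8 MSI and within the 8 CIN tumour libraries for a sample far from the others, and 7 of 70 checks found one, where chance finds about 1 in 20. In the CIN tumour library with MSI micronuclei, replicate 1, which also had the lowest colon score (3.11), 5 posterior genes lay far below the next lowest CIN tumour library. In log2 CPM, Hoxb13 was at 1.91 (next 5.25), Hoxd13 at 1.23 (next 5.12), Hoxa13 at 0.63 (next 3.11), Hoxd12 at -2.88 (next 0.34) and Hoxd11 at -2.88 (next 1.00), the last 2 from 0 counts. In the CIN tumour library with CIN micronuclei, replicate 2, Hoxa4 was lowest at 1.08 (next 1.51) and Hoxa3 highest at 3.55 (next 3.06). The slope of Hoxd10 on the colon score differed between MSI and CIN tumours by 0.57 in a test of the difference itself, a call lost without the CIN tumour library with MSI micronuclei, replicate 1.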

How the results depend on the processing

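For MSI against CIN tumours, where 0 HOX genes and 1089 genes in all were called, DESeq2 called 2295 genes, the additive model 1950, the skeletal muscle covariate 507, and the fit without the 5 libraries high in skeletal muscle 129. The colon covariate called 2 HOX genes (Hoxd8 and Hoxc11) and 2696 genes. Leaving out single libraries gave 0 to 1 HOX genes and 500 to 1951 genes. The count of 1 (Hoxa10) and the highest total came without MSI tumour CIN micronuclei, replicate 1. The lowest total came without CIN tumour CIN free DNA, replicate 2. DNA origin, DNA form and both interactions stayed at 0 genes with every library left out; DESeq2 called 2 for the interaction with DNA origin. With a group reduced to 1 library, that library is assumed to vary like the other groups.

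On the colon score, within CIN tumours alone 9 HOX genes and 3325 genes were called. Leaving out single libraries gave 21 to 27 HOX genes and 8146 to 10208 genes. Of the 24 genes called, 9 kept their call in every setting, and 608 of 648 gene and setting pairs did; the other 40 kept the direction. At equal colon score, leaving out single libraries gave 2 (without MSI tumour CIN micronuclei, replicate 1) to 7 HOX genes and 2712 to 4561 genes. Without the 5 libraries 2231 genes were called. With the smooth muscle score in its place 2 HOX genes were called and Hoxb13 turned to -0.030. The smooth muscle slope gave 21 to 28 HOX genes and 8767 to 10194 genes with a library left out. For the skeletal muscle slope DESeq2 called 6 HOX genes and 3166 genes, and leaving out single libraries gave 0 to 6 and 39 to 3532, the highest without MSI tumour CIN free DNA, replicate 1. For the difference of colon slopes DESeq2 called 7 HOX genes and 959 genes. Leaving out single libraries gave 0 to 8 HOX genes (8 without MSI tumour CIN micronuclei, replicate 1) and 2 to 1209 genes (2 without CIN tumour MSI micronuclei, replicate 1). The cause of these shifts was not tested.

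Libraries with the same replicate number deviated from their group means with correlations of -0.54 to 0.80 over 28 pairs, 16 of them over 0.1. Every pair within MSI tumours was over 0.1 (0.40 to 0.80), while pairs within CIN tumours ran from -0.33 to 0.38. Over both tumour types the numbers were thus not taken to pair the libraries. Of 16 libraries, 14 correlated best with a library of their own number, a hint from the data and not the design. Within a group the deviations of the replicates mirror each other, so its libraries give the same answer. The 14 libraries are therefore not independent. With the replicate block, 1 HOX gene (Hoxd8) and 1778 genes were called between tumour types. With a replicate block within each tumour type 6 HOX genes and 3428 genes were called. The block gave 15 HOX genes and 5762 genes on the skeletal muscle score, and 0 HOX genes and 82 genes for the difference of colon slopes.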
